A study of Mus musculus with 6 samples.

Results

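CXC chemokines and the related CX3C chemokine Cx3cl1 are small proteins that guide leukocytes through G protein-coupled receptors. The genes of 10 such ligands are described, namely Cxcl1, Cxcl2, Cxcl9, Cxcl10, Cxcl12, Cxcl13, Cxcl14, Cxcl16, Pf4 and Cx3cl1. They were chosen by name, as the entries of the deposited expression table whose gene symbol equals one of these names, and all 10 were found among the 26110 genes listed. Ligands with a glutamate-leucine-arginine motif, such as Cxcl1 and Cxcl2, attract neutrophils through CXCR2, whereas the interferon-induced Cxcl9 and Cxcl10 attract activated T cells through CXCR3. Cxcl12 and Cxcl13 place cells in bone marrow, lymphoid organs and other tissues, and Cxcl16 and Cx3cl1 are made as membrane proteins that proteases can release. In the muscularis externa (ME), the muscle coat of the gut with the myenteric plexus, resident macrophages are a known source of chemokines after surgical handling of the bowel.

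RNA of MHCII hi cells from the small bowel ME of naive mice was measured by bulk RNA-seq after sorting by CX3CR1, with 3 CX3CR1- and 3 CX3CR1+ libraries. All animals carried the genotype CX3CR1+/GFP on a C57BL/6 background, were female and received no treatment, and their age is not given in the sources used here. GFP takes the place of a Cx3cr1 allele in this strain and served as the sort signal, so that Cx3cr1 itself is a gate and not a finding. Tissue of 6 mice was pooled for each group, and since it is not stated whether each library had a pool of its own, p-values measure the spread between libraries, which may be technical. The labels call both sorted populations dendritic cells, and the study calls them macrophages.

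Values are estimated counts that the authors normalized between libraries, and 3 reads correspond to 1.39 to 5.36 on this scale, depending on the library. Such a floor covers counting error only, and marker genes given as at or under 3 reads are named after their values were seen. Fold changes are given as log2 of the value + 1 in CX3CR1- over CX3CR1+ libraries, so that a negative number means a lower value in CX3CR1- cells. Genes count as called where the log2 fold change reached 1 in either direction and the p from limma with Benjamini-Hochberg adjustment, over the 17812 genes whose mean across the 6 libraries reached 10, did not exceed 0.05.

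The sort gene Cx3cr1, which encodes the receptor of Cx3cl1, had values of 23.2, 18.9 and 28.5 in CX3CR1- and of 371, 380.4 and 347 in CX3CR1+ libraries. Every CX3CR1- library was far below every CX3CR1+ library, as the gate sets, with a log2 fold change of -3.92. The MHC class II genes of the gate were high in all 6 libraries, with H2-Aa, a chain of the antigen-presenting heterodimer, between 21086 and 25584 in CX3CR1- and between 43468 and 48796 in CX3CR1+ libraries. Of 6 genes of the gate and of leukocyte identity, 2 were called lower in CX3CR1- cells and 0 higher, with a median log2 fold change of -0.90. They were H2-Aa, at -1.003, and the microglia and macrophage gene Aif1, named after its values were seen, at -2.32, while Cd74 and H2-Ab1 were at -0.85 and -0.64. This count was 4 after quantile normalization and 1 without mitochondrial genes in the totals, without CX3CR1- replicate 1 or 3, or without CX3CR1+ replicate 1. The study describes the CX3CR1- cells as CD45+, and Ptprc, the gene of CD45, named after its values were seen, was at 3826, 4526 and 2860.5 in CX3CR1- and at 4198, 3897 and 4579 in CX3CR1+ libraries. The leukocyte gene was thus high in all libraries. Of 11 macrophage markers, 11 were called lower in CX3CR1- cells and 0 higher, with a median log2 fold change of -2.40, and their summed level was 11335, 12982 and 12739 in CX3CR1- and 59087, 60963 and 55334 in CX3CR1+ libraries. Mrc1, the mannose receptor, was the most abundant of them, with a log2 fold change of -2.18 (limma adjusted p = 5.62e-06), and Csf1r and C1qb had log2 fold changes of -2.42 and -2.28. Of 8 dendritic cell markers, 7 were called higher in CX3CR1- cells and 0 lower, with a median log2 fold change of 3.71, and their summed level was 3111, 3800 and 3413 in CX3CR1- and 252, 257 and 294 in CX3CR1+ libraries. The dendritic cell markers Clec9a, Cd209a and Xcr1 were thus present in CX3CR1- libraries at several times their level in CX3CR1+ libraries, with log2 fold changes of 4.24, 4.99 and 2.99. The part of these marker genes in the chemokine results was not tested, and in bulk libraries fewer cells of a type and less RNA per cell cannot be told apart.

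Of the 10 ligand genes, all 10 passed the filter on low values, 2 were called higher and 5 lower in CX3CR1- cells, against 12.2% called higher and 8.15% called lower among all genes tested. For 9 of the 10 the groups held no overlapping values, against 40.0% of all genes tested, and the exact two-sided permutation test gave p = 0.1 for each of the 9, the smallest that 3 libraries against 3 allow. Cxcl9 and Cxcl12 were the genes called higher, and Cxcl1, Cxcl2, Cxcl14, Cxcl16 and Pf4 those called lower. Cxcl10, Cxcl13 and Cx3cl1 were not called. The median log2 fold change of the 10 genes was -1.69, against -0.0035 for all genes tested. Cxcl14 passed the filter only through its level in CX3CR1+ libraries and Cxcl13 only through its level in CX3CR1- libraries, and such genes can more easily be called toward the group that carried them. The same holds for marker genes with a mean under 10 in 1 group, among them most epithelial and B cell markers. Mitochondrial genes made up 54.9, 47.5 and 52.5% of the values in CX3CR1- and 21.2, 19.5 and 18.1% in CX3CR1+ libraries. This share differs between the groups without overlap, and its part in the ligand differences was not tested.

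**Figure D1:**
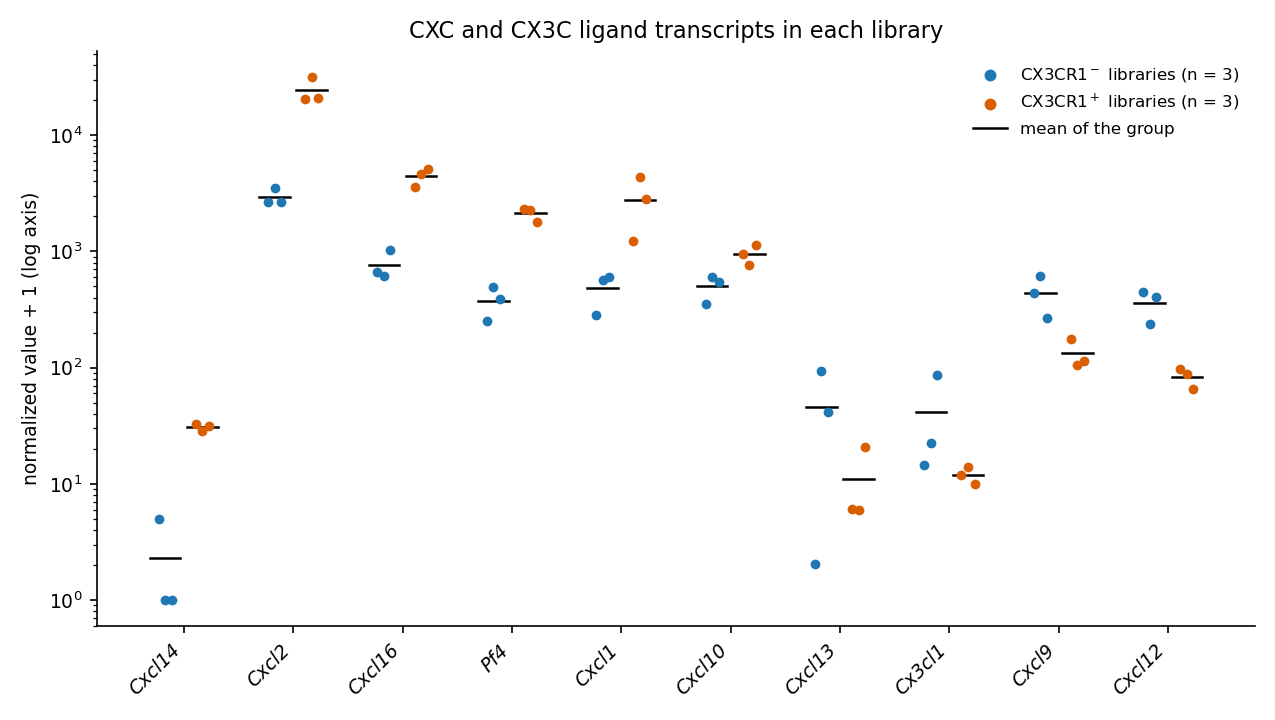
Normalized value + 1 of each of the 10 ligand genes on a log axis, with a point for each of the 3 CX3CR1- libraries (blue) and the 3 CX3CR1+ libraries (orange) and a black line at the mean of the group. The points of the groups overlap for Cxcl13 only and nearly meet for Cx3cl1 (13.6 and 13.1), with Cxcl2 highest in both groups and Cxcl14 listed at 0 in 2 CX3CR1- libraries.

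**Figure D2:**
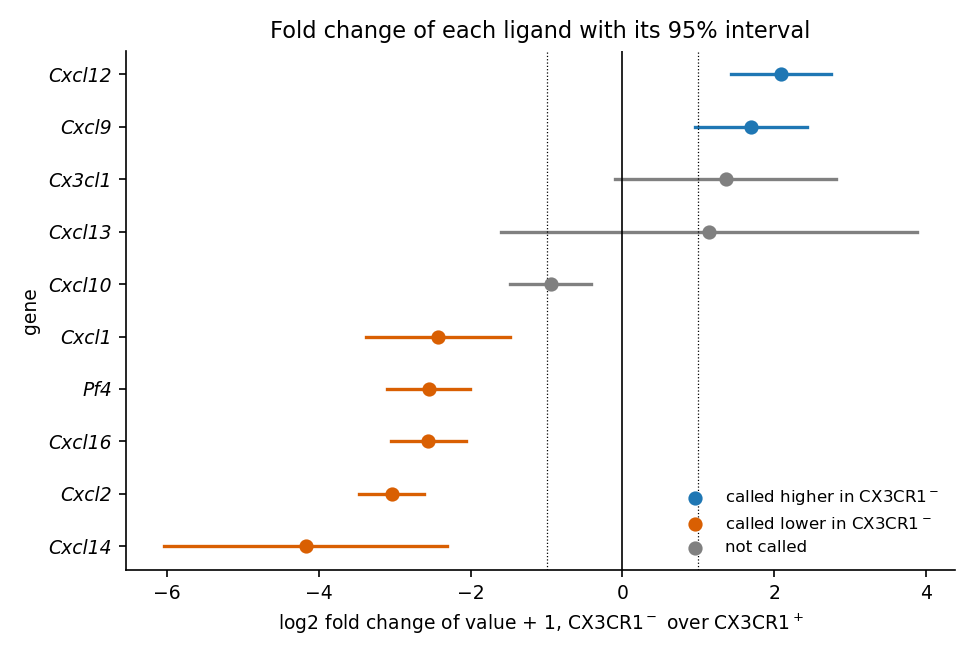
Log2 fold change of each ligand gene between CX3CR1- and CX3CR1+ libraries with its 95% interval from limma, where blue and orange mark genes called higher and lower in CX3CR1- cells, grey those not called, and dotted lines the fold threshold. The intervals of Cxcl13, from -1.60 to 3.88, and Cx3cl1, from -0.10 to 2.82, include 0.

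Cxcl2, a neutrophil attractant that macrophages release early after a danger signal, had the highest level per kilobase of transcript of the 10 ligands in both populations. It was at 2661, 3477 and 2648 in CX3CR1- and at 20424, 31713 and 21051 in CX3CR1+ libraries. All CX3CR1+ libraries thus held several times as much as any CX3CR1- library, and no value came close to the other group. The group means were 2929 ± 475 (SD, n = 3) and 24396 ± 6345 (SD, n = 3), an 8.33-fold higher mean in CX3CR1+ cells. The log2 fold change was -3.04 (SE 0.19, limma adjusted p = 5.62e-06). Of the 31-mers of Cxcl2, 7.59% also occur in its paralog Cxcl3, so that reads could be divided between them.

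Cxcl1, the neighbouring gene and also a ligand of CXCR2, was at 282, 563 and 599 in CX3CR1- and at 1228, 4333 and 2810.1 in CX3CR1+ libraries. The lowest CX3CR1+ library, replicate 1, was still above the highest CX3CR1- library, but the CX3CR1+ libraries spread more widely than for Cxcl2. The means were 481 ± 173 (SD, n = 3) and 2791 ± 1553 (SD, n = 3), and the log2 fold change was -2.43 (SE 0.43, limma adjusted p = 0.00229). Cxcl1 shares none of its 31-mers with another gene. The ratio of Cxcl2 to Cxcl1 per kilobase was 4.84, 3.17 and 2.27 in CX3CR1- and 8.52, 3.75 and 3.84 in CX3CR1+ libraries, so that the ranges of the groups overlapped and the balance of the pair was not separated between the populations.

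The other ligands of CXCR2 were low. Cxcl3, close to Cxcl2 in sequence, was at 20.4, 22.1 and 3.51 in CX3CR1- and at 23.0, 42.3 and 20.9 in CX3CR1+ libraries, with a log2 fold change of -1.12 (SE 0.67, limma adjusted p = 0.273). Its groups overlapped, and the paralog of Cxcl2 passed the fold threshold but not the limit on p. With 1 library left out, the log2 fold change of Cxcl3 ranged from -1.53 to -0.35. Ppbp, which gives rise to a platelet-derived neutrophil attractant, was at 1.04, 3.58 and 3.99 in CX3CR1- and at 27.8, 25.4 and 9.92 in CX3CR1+ libraries. It was called lower with a log2 fold change of -2.49 (SE 0.73, limma adjusted p = 0.0323), but not without CX3CR1- replicate 1 or without any of the 3 CX3CR1+ libraries, where the adjusted p lay between 0.0518 and 0.192. Cxcl5, Cxcl11, Cxcl15 and Xcl1 had means under 10 and were not tested. Cxcl5, made mainly by epithelial cells, was at 6.85 ± 2.70 (SD, n = 3) in CX3CR1- against 3.39 ± 0.648 (SD, n = 3) in CX3CR1+ cells. Cxcl15, which is known from lung epithelium, was at 11.5 ± 10.9 (SD, n = 3) and 6.45 ± 3.14 (SD, n = 3). The list of the other CXC and XC ligands had 2 tested genes of the 6 found, of which Ppbp, which passed the filter only through CX3CR1+ libraries, was called lower and 0 higher, with a median of -1.80, and Cxcl17 was not analysed here. The count called lower was 0 without CX3CR1- replicate 1 or any of the CX3CR1+ libraries.

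CXCR2, the receptor of these neutrophil attractants, is encoded by Cxcr2, which was at 51.1, 41.1 and 39.9 in CX3CR1- and at 55.0, 59.9 and 45.3 in CX3CR1+ libraries. The groups overlapped, with a log2 fold change of -0.27 (SE 0.31, limma adjusted p = 0.586). Of 9 neutrophil markers, 2 were found, S100a8, S100a9, Ly6g, Retnlg, Camp, Ngp and Elane were not analysed here, and 1 was tested. The sum of the 2 was 65.7, 41.7 and 66.5 in CX3CR1- and 677, 1081 and 733 in CX3CR1+ libraries. This was Csf3r, the receptor of granulocyte colony-stimulating factor, which monocytes and macrophages also express, at 54.5, 40.1 and 56.6 in CX3CR1- and at 659.6, 1076 and 728 in CX3CR1+ libraries. It was called lower in CX3CR1- cells with a log2 fold change of -3.98 (SE 0.26, limma adjusted p = 6.59e-06). Mpo, the granule peroxidase of neutrophils, was at 7.56 ± 5.20 (SD, n = 3) in CX3CR1- against 9.34 ± 7.36 (SD, n = 3) in CX3CR1+ cells and was not tested.

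Transcription of Cxcl1 and Cxcl2 is known to be driven by NF-κB, and their mRNA to be degraded with the help of Zfp36. Of 9 genes for NF-κB subunits, feedback inhibitors and mRNA decay, 3 were called lower in CX3CR1- cells and 0 higher, and their median log2 fold change was -0.92. Each of the 9 had groups that did not overlap, with the CX3CR1- libraries lower. Among all genes tested, 40.0% had groups without overlap, in either direction. The 3 called genes were Nfkbiz, Zfp36 and Tnfaip3, of which Tnfaip3 is named after its values were seen. Zfp36, which binds AU-rich elements, was at 22526, 23155 and 22136 in CX3CR1- and at 54165, 60469 and 60124 in CX3CR1+ libraries. Every CX3CR1- library was below every CX3CR1+ library, with a log2 fold change of -1.36 (SE 0.11, limma adjusted p = 2.02e-05). Nfkbiz, a nuclear coactivator of NF-κB target genes, had a log2 fold change of -1.56 (SE 0.13, limma adjusted p = 2.29e-05), and Tnfaip3, a deubiquitinase that ends the signal, one of -1.35 (SE 0.21, limma adjusted p = 0.00116). The subunit gene Rel was at 5747 ± 506 (SD, n = 3) and 10981 ± 2044.7 (SD, n = 3), and its log2 fold change of -0.92 missed the fold threshold, which it passed at -1.06 without CX3CR1+ replicate 1. Leaving out CX3CR1- replicate 1 or CX3CR1+ replicate 1 gave 5 of the 9 called lower, and quantile normalization gave 2, with Tnfaip3 at -0.84 and not called. The part of NF-κB activity or mRNA decay in the values of Cxcl1 and Cxcl2 was not tested.

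Cxcl1 and Cxcl2 lie 10.8 kb apart on the same strand of chromosome 5, Cxcl1 at chr5:90891241-90893115 and Cxcl2 at chr5:90903871-90905938 (GENCODE, GRCm38). Since both fell together, the 250 bases before their RefSeq starts are shown (GRCm38.p6), 5′ to 3′ on the plus strand, Cxcl1 at chr5:90890995-90891244 and Cxcl2 at chr5:90903649-90903898. Capitals mark matches to the NF-κB consensus, searched on both strands, where 2 overlapping matches, GGGAATTTCC and GGAATTTCCC, make up each marked stretch.
Cxcl1: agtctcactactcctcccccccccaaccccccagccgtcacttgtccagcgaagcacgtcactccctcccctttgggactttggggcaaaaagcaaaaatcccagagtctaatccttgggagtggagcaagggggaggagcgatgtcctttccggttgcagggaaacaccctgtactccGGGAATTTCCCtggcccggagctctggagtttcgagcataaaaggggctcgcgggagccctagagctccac
Cxcl2: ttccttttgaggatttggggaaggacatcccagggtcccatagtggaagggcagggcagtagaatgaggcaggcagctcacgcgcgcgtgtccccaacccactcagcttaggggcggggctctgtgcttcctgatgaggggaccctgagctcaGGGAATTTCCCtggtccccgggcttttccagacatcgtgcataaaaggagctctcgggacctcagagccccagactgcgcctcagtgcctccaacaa
Counted from the RefSeq starts, the first of the overlapping matches begins 71 bases upstream in Cxcl1 and 97 bases upstream in Cxcl2. These starts lie inside the GENCODE positions given for the genes, so that the windows reach into them. The letters of the match are the same in both genes. Among 32851 mouse promoters of this length, 3.90% hold a match to the consensus. A match is a description of the sequence and was not measured as a binding site.

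Pf4, platelet factor 4, is best known from the granules of platelets and is also transcribed by some tissue macrophages. It was at 250.01, 489 and 385 in CX3CR1- and at 2335, 2278 and 1797 in CX3CR1+ libraries. The lowest CX3CR1+ library was several times above the highest CX3CR1- library, and the CX3CR1+ libraries lay close together. The means were 375 ± 120 (SD, n = 3) and 2137 ± 295.5 (SD, n = 3), and the log2 fold change was -2.55 (SE 0.25, limma adjusted p = 5.42e-05). Of 9 platelet and megakaryocyte markers, 6 were found and 3 tested, of which Gp6, the collagen receptor of platelets, was called lower and 0 were called higher, with a median log2 fold change of -0.36. Gp1bb, Treml1 and Tubb1 were not analysed here. The summed level of the 6 markers was 63.1, 102 and 48.8 in CX3CR1- and 49.4, 96.2 and 47.2 in CX3CR1+ libraries, which overlapped between the groups. The part of platelet RNA in the Pf4 difference was not tested. Gp6 was at 12.6 ± 6.84 (SD, n = 3) in CX3CR1- against 38.9 ± 9.64 (SD, n = 3) in CX3CR1+ cells, with a log2 fold change of -1.68 (SE 0.52, limma adjusted p = 0.0408). It was not called in fits without CX3CR1- replicate 1 or 2 or without any of the 3 CX3CR1+ libraries (adjusted p from 0.0606 to 0.181), which left 0 platelet markers called lower. Gp6 also lost its call with adjacent library numbers as a block (limma adjusted p = 0.0610). The same held with equal totals without mitochondrial genes, at -1.51 (limma adjusted p = 0.0721). Clec1b, a platelet lectin, had a log2 fold change of 1.75 (SE 0.98, limma adjusted p = 0.236), and without CX3CR1- replicate 3 it was called higher at 2.71 (limma adjusted p = 0.0443), which gave 1 platelet marker called higher. Gp1ba, a subunit of the receptor for von Willebrand factor, was at 12.5 ± 11.9 (SD, n = 3) and 11.1 ± 11.4 (SD, n = 3), with a log2 fold change of -0.36 that was 0.0504 with a pseudocount of 10, 1.06 without CX3CR1- replicate 3 and 0.37 without CX3CR1+ replicate 2. Gp9 was at or under 3 reads in all CX3CR1+ libraries.

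Cxcl9 and Cxcl10 both act on CXCR3 and are both induced by interferons, but only Cxcl9 was called in the sorted cells. Cxcl9 was at 438, 616 and 267 in CX3CR1- and at 177, 104 and 114 in CX3CR1+ libraries. Every CX3CR1- library was above every CX3CR1+ library, with CX3CR1- replicate 3 nearest to the other group. The means were 440.3 ± 174 (SD, n = 3) and 132 ± 39.6 (SD, n = 3), and Cxcl9 was called higher in CX3CR1- cells with a log2 fold change of 1.69 (SE 0.33, limma adjusted p = 0.00408).

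Cxcl10 was at 352, 596 and 548 in CX3CR1- and at 952, 768 and 1125 in CX3CR1+ libraries. Here the CX3CR1+ libraries were higher without overlap, but the distance between the groups was small. The means were 499 ± 130 (SD, n = 3) and 948 ± 178 (SD, n = 3), and the log2 fold change of -0.95 (SE 0.24, limma adjusted p = 0.0161) missed the fold threshold. Without CX3CR1- replicate 2, CX3CR1- replicate 3 or CX3CR1+ replicate 2, Cxcl10 was called lower, with log2 fold changes of -1.09, -1.03 and -1.09. Its log2 fold change was -0.71 without CX3CR1- replicate 1. The ratio of Cxcl10 to Cxcl9 per kilobase was 1.71, 2.07 and 4.38 in CX3CR1- and 11.5, 15.8 and 21.1 in CX3CR1+ libraries, so that the balance of these CXCR3 ligands differed without overlap between the populations. The ratio was not tested.

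Cxcl11, the remaining ligand of CXCR3, was at 3.57, 4.32 and 20.2 in CX3CR1- and at 3.35, 8.91 and 5.13 in CX3CR1+ libraries and was not tested. Of its 31-mers, 42.2% also occur in another gene, mostly Gm2673, so that its value is uncertain. Cxcr3 was at 4.17, 32.2 and 14.0 in CX3CR1- and at 15.3, 21.3 and 21.2 in CX3CR1+ libraries. The receptor was low in both groups, which overlapped, with a log2 fold change of -0.55 (SE 0.68, limma adjusted p = 0.611) that became 0.15 without CX3CR1- replicate 1.

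Cxcl9 depends mainly on interferon-γ, and Cxcl10 also on type I interferon and NF-κB. Of 14 genes for interferon receptors, JAK-STAT signalling, interferon regulatory factors and reference targets, 1 was called higher and 3 lower in CX3CR1- cells, and the median log2 fold change was -0.55. The 4 called genes, named after their values were seen, were Jak2, which was higher with a log2 fold change of 1.55 (SE 0.19, limma adjusted p = 2.20e-04), and the receptor subunit genes Ifngr2, Ifnar1 and Ifnar2, at -1.60, -1.11 and -1.32. Jak2 encodes a kinase bound to the interferon-γ receptor, so that genes of the same receptor complex lay on both sides. Ifnar1 missed the fold threshold without CX3CR1- replicate 1, at -0.96, after quantile normalization, at -0.84, and with equal totals without mitochondrial genes, at -0.94, and each of these left 2 genes called lower. Jak1, the most abundant gene of the list, and Irf1 had log2 fold changes of -0.61 and -0.64, which did not reach the fold threshold. The transcription factor gene Irf1, an interferon-γ target that acts on the Cxcl9 promoter, was at 859.8, 611 and 993 in CX3CR1- and at 1320.3, 1148 and 1314 in CX3CR1+ libraries.

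Cxcl9 lies at chr5:92321347-92328079 and Cxcl10 18.6 kb from it at chr5:92346638-92348889, both on the minus strand (GRCm38). Because Cxcl9 was called higher and its neighbour was not, the 250 bases before their starts are shown from RefSeq (GRCm38.p6), 5′ to 3′ on the minus strand, Cxcl10 at chr5:92348890-92349139 and Cxcl9 at chr5:92328080-92328329. Capitals mark matches on both strands to the NF-κB consensus and to the core of the interferon-stimulated response element, TTTCNNTTT.
Cxcl10: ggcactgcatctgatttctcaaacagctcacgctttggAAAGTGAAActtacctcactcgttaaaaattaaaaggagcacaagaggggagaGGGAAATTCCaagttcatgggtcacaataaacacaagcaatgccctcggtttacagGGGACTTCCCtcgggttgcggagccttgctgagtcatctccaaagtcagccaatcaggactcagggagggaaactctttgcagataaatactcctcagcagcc
Cxcl9: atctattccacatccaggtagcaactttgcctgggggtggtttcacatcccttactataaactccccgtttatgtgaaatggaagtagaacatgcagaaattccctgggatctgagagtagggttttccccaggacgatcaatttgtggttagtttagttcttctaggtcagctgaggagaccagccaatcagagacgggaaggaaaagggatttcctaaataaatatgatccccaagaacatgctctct
In Cxcl10, AAAGTGAAA, the element core on the other strand, begins 212 bases and the NF-κB matches GGGAAATTCC and GGGACTTCCC begin 159 and 103 bases before the start. In Cxcl9 these letters and those of the interferon-γ element TTCNNNGAA do not occur in this window. The response element core is in 9.37% of all promoters of this length and TTCNNNGAA in 7.02%. Of the 10 ligand genes, 9 had a promoter entry, and in the windows of Cxcl12, Cxcl13, Pf4 and Cx3cl1 none of the searched motifs was found. Cxcl14 held AAACAGAAA 171 bases and TTCTGAGAA 191 bases before its start.

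Cxcl12 keeps leukocytes and progenitors in tissue through CXCR4 and is classically a product of stromal cells. It was at 447, 237 and 403 in CX3CR1- and at 95.9, 87.1 and 65.0 in CX3CR1+ libraries. Every CX3CR1- library was above every CX3CR1+ library, with replicate 2 lowest among the CX3CR1- libraries. The means were 362 ± 111 (SD, n = 3) and 82.7 ± 15.9 (SD, n = 3), and the log2 fold change was 2.09 (SE 0.30, limma adjusted p = 6.12e-04). All listed fibroblast genes and part of the endothelial genes were also called higher in CX3CR1- cells. Of 7 fibroblast markers, 7 were called higher in CX3CR1- cells and 0 lower, with a median log2 fold change of 4.85 and a summed level of 9409, 5258 and 16011 in CX3CR1- and 364, 303 and 209 in CX3CR1+ libraries. Dcn, the proteoglycan decorin and the most abundant of them, was at 2389, 1582 and 4141 in CX3CR1- and at 135, 88.4 and 52.8 in CX3CR1+ libraries, and the log2 fold changes of Dpt and Pdgfra were 5.60 and 5.45. The fibroblast sum did not overlap between the groups and was highest in CX3CR1- replicate 3, while Cxcl12 was highest in CX3CR1- replicate 1. Of 7 endothelial markers, 6 were tested, of which 4 were called higher, with a median of 2.28. Those called higher were Cdh5 at 4.26, Vwf at 2.02, Kdr at 2.55 and Emcn at 5.41, and 1 was lower, Prox1 at -2.04, where Kdr, Emcn and Prox1 are named after their values were seen. Cdh5 and Emcn passed the filter only through CX3CR1- libraries. The endothelial sum was 1089, 866 and 963 in CX3CR1- and 417, 627 and 645 in CX3CR1+ libraries, with Pecam1, which leukocytes also express, as its most abundant gene (log2 fold change 0.35) and Cldn5 at or under 3 reads in all CX3CR1+ libraries. The part of fibroblast and endothelial RNA in the Cxcl12 difference was not tested.

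The receptors of Cxcl12 moved in opposite directions. Cxcr4, its signalling receptor, was at 512, 526 and 288 in CX3CR1- and at 962, 1036 and 1460.4 in CX3CR1+ libraries. The groups did not overlap, and Cxcr4 was called lower in CX3CR1- cells with a log2 fold change of -1.41 (SE 0.26, limma adjusted p = 0.00334). Ackr3, an atypical receptor that removes Cxcl12, was at 52.2, 68.0 and 25.9 in CX3CR1- and at 13.4, 10.7 and 4.25 in CX3CR1+ libraries. It was higher in every CX3CR1- library and was called with a log2 fold change of 2.27 (SE 0.56, limma adjusted p = 0.0141), but not without CX3CR1+ replicate 3, at 1.83 (limma adjusted p = 0.0510). Dpp4, a surface peptidase that trims Cxcl12, Cxcl9 and Cxcl10, was at 551, 429 and 427 in CX3CR1- and at 29.6, 27.5 and 35.6 in CX3CR1+ libraries. The CX3CR1- libraries were far above the others, a 15.2-fold higher mean and a log2 fold change of 3.88 (SE 0.25, limma adjusted p = 6.27e-06).

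Cxcl13 draws B cells into lymphoid follicles. On the log2 scale it varied most among the ligands, with SDs of 2.91 in CX3CR1- and 1.04 in CX3CR1+ libraries. It was at 1.04, 93.0 and 40.9 in CX3CR1- and at 5.09, 4.92 and 19.8 in CX3CR1+ libraries. The groups overlapped, since CX3CR1- replicate 1 held about 1 read and was the lowest of all 6 libraries. The means were 44.97 ± 46.1 (SD, n = 3) and 9.95 ± 8.56 (SD, n = 3), and Cxcl13 was not called, with a log2 fold change of 1.14 (SE 1.23, limma adjusted p = 0.557, exact two-sided permutation p = 0.6). Without CX3CR1- replicate 1 it was called higher at 2.79 (limma adjusted p = 0.0250), and without CX3CR1- replicate 2 its log2 fold change was 0.026 (limma adjusted p = 0.990), over a range of adjusted p from 0.0250 to 0.990 across the alternatives.

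Cxcr5, the receptor of Cxcl13 on B cells, was at 46.2, 59.7 and 92.1 in CX3CR1- and at 0.718, 4.45 and 20.6 in CX3CR1+ libraries. It was higher in every CX3CR1- library, with a log2 fold change of 3.45 (SE 0.81, limma adjusted p = 0.0111), and was not called without CX3CR1- replicate 3, at 3.19 (limma adjusted p = 0.0527). Of 7 B and plasma cell markers, 6 were called higher in CX3CR1- cells and 0 lower, with a median log2 fold change of 5.91. Their sum was 1703, 3942 and 1906 in CX3CR1- and 68.7, 89.3 and 97.3 in CX3CR1+ libraries, without overlap between the groups. Jchain, the joining chain of secreted antibodies, was the most abundant of them with a log2 fold change of 7.003, and Cd79a and Pax5 were at 6.65 and 5.91. Mzb1, a chaperone of plasma cells, was at or under 3 reads in all CX3CR1+ libraries. The part of B cell RNA in the values of Cxcl13 and Cxcr5 was not tested.

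Lymphotoxin signalling induces Cxcl13 in lymphoid tissue. Of 5 genes of this axis, 3 were tested, of which 1 was called lower in CX3CR1- cells, Tnfsf14, and 0 higher, with a median log2 fold change of -0.61. Tnfsf14, a ligand of the lymphotoxin receptor also called LIGHT, was at 7.70 ± 3.09 (SD, n = 3) and 29.5 ± 11.7 (SD, n = 3), a log2 fold change of -1.82 (SE 0.55, limma adjusted p = 0.0364), and passed the filter only through CX3CR1+ libraries. It was not called, and the count was 0, without mitochondrial genes in the totals, without CX3CR1- replicate 1 or without any of the CX3CR1+ libraries (adjusted p from 0.0574 to 0.190). Ltbr, the receptor, was at 67.8 ± 39.9 (SD, n = 3) and 95.2 ± 39.5 (SD, n = 3), and Map3k14, the kinase of the noncanonical NF-κB pathway, had a log2 fold change of 0.40 (limma adjusted p = 0.219). Lta and Ltb, named after their values were seen, were not tested. Lta was at 2.09, 10.7 and 6.98 in CX3CR1- and listed at 0 in all CX3CR1+ libraries. Ltb was at 0, 15.3 and 0 in CX3CR1- and at 1.53, 1.02 and 2.18 in CX3CR1+ libraries. Without the filter on low values, 1 gene of the axis was called higher.

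Cxcl14, a constitutive ligand of skin and mucosal epithelia, was at 3.95, 0 and 0 in CX3CR1- and at 32.0, 27.4 and 30.4 in CX3CR1+ libraries. The CX3CR1+ libraries lay close together at a low level, while only CX3CR1- replicate 1 held reads, about 3.79. The log2 fold change was -4.18 (SE 0.84, limma adjusted p = 0.00477), a value that depends on the pseudocount and was -1.83 with a pseudocount of 10 and -4.87 with 0.5. Without CX3CR1+ replicate 1 it was -4.13 and no longer called (limma adjusted p = 0.0505), over a range of adjusted p from 0.00119 to 0.0505 across the alternatives, and without CX3CR1- replicate 1 it was -4.95. Epithelial cells are a known source of Cxcl14, and their part in its values was not tested. Of 9 intestinal epithelial markers, 9 were called higher in CX3CR1- cells, with a median log2 fold change of 6.36 and a summed level of 27009.9, 25196 and 15799 in CX3CR1- and 53.0, 26.1 and 21.2 in CX3CR1+ libraries. Fabp2, a fatty acid binding protein of enterocytes, was the most abundant at 18240.0 ± 4921 (SD, n = 3) in CX3CR1- against 4.30 ± 4.403 (SD, n = 3) in CX3CR1+ cells, and its log2 fold change was 12.06. Vil1 and Krt20 had log2 fold changes of 6.36 and 10.10, and Krt8, Krt20 and Cdx2 were at or under 3 reads in all CX3CR1+ libraries.

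Cxcl16 is a transmembrane ligand that also serves as a scavenger receptor for oxidized lipids and is known from macrophages and dendritic cells. It was at 658, 611 and 1031 in CX3CR1- and at 3602, 4605 and 5149 in CX3CR1+ libraries. All CX3CR1+ libraries were several times above all CX3CR1- libraries. The means were 767 ± 230.1 (SD, n = 3) and 4452 ± 785 (SD, n = 3), and the log2 fold change was -2.56 (SE 0.22, limma adjusted p = 2.98e-05). Of its 31-mers, 18.5% also occur in Zmynd15, so that reads could be divided between the genes. Cxcr6, the receptor of Cxcl16 on T and NKT cells, was at 6.28, 16.05 and 13.9 in CX3CR1- and at 4.61, 2.47 and 7.10 in CX3CR1+ libraries and was not tested. Of 7 T and NK cell markers, 6 were found and 3 tested, with a median log2 fold change of 0.07, and Ncr1 was not analysed here. Their sum was 222, 232 and 303 in CX3CR1- and 576, 618 and 670.0 in CX3CR1+ libraries, with Cd4 most abundant and Klrb1c at or under 3 reads in all CX3CR1+ libraries. Of the 3, Cd8a, which passed the filter only through CX3CR1- libraries, was called higher, with a log2 fold change of 2.42, and Cd4 lower, at -2.30. Cd4 is also found on macrophages, and Cd3d, a part of the T cell receptor complex, was at 83.5 ± 25.3 (SD, n = 3) and 82.3 ± 36.6 (SD, n = 3), with a log2 fold change of 0.07 that became -0.15 after quantile normalization. Without CX3CR1- replicate 2 or CX3CR1+ replicate 3, 0 of these markers were called higher, with Cd8a at 2.16 and 1.84 (limma adjusted p = 0.0580 and 0.0668), and Cd3d was at -0.17 without CX3CR1- replicate 3, -0.19 without CX3CR1+ replicate 1 and -0.0071 without CX3CR1+ replicate 2.

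Cx3cl1, the membrane-bound ligand of the sort receptor, known from neurons, endothelium and epithelium, was at 13.6, 21.6 and 86.2 in CX3CR1- and at 11.01, 13.1 and 9.04 in CX3CR1+ libraries. The groups touched without overlap, and CX3CR1- replicate 3 alone was clearly above the rest. The means were 40.5 ± 39.8 (SD, n = 3) and 11.04 ± 2.02 (SD, n = 3), and the gene was not called, with a log2 fold change of 1.36 (SE 0.66, limma adjusted p = 0.169) that was 0.61 without CX3CR1- replicate 3. Of 11 markers of enteric neurons, glia and pacemaker cells, 9 were tested, and 4 were called higher in CX3CR1- cells and 0 lower, with a median of 1.77 and a sum of 1205, 348 and 1309 in CX3CR1- and 225, 225 and 184 in CX3CR1+ libraries. The called genes were Kit, Sox10, S100b and Gfap, of which the last 3, at 2.32, 2.26 and 2.22, are named after their values were seen. Glial Sox10, which passed the filter only through CX3CR1- libraries, was not called without CX3CR1- replicate 1 or 3 or CX3CR1+ replicate 2 or 3 (adjusted p from 0.101 to 0.133), nor after quantile normalization (1.92) or without the intensity trend (adjusted p = 0.0733), and S100b not without CX3CR1- replicate 1 or 3 or CX3CR1+ replicate 3 (adjusted p from 0.0593 to 0.0648). Kit, the most abundant and a receptor of pacemaker cells, had a log2 fold change of 3.30 (SE 0.50, limma adjusted p = 9.27e-04). Without CX3CR1- replicate 2, the lowest library of the list in its group, 7 were called higher, and without CX3CR1- replicate 1 or CX3CR1+ replicate 3 the count was 2. Snap25 and Ano1 had log2 fold changes of 1.35 and 1.05 and were called only without CX3CR1- replicate 2, at 2.54 and 1.87. The part of neural RNA in the values of Cx3cl1 was not tested.

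ADAM10 and ADAM17 release Cxcl16 and Cx3cl1 from the membrane. Of 4 protease genes, 1 was called higher, Dpp4, and 1 lower, Adam17, and the median log2 fold change was -0.33. Adam17 was at 569.5, 808 and 433 in CX3CR1- and at 1707, 2042.6 and 1736 in CX3CR1+ libraries. It was lower in every CX3CR1- library, with a log2 fold change of -1.64 (SE 0.23, limma adjusted p = 5.22e-04). Adam10 was at 351 ± 157 (SD, n = 3) and 439 ± 154 (SD, n = 3), and Mmp9, which trims neutrophil-attracting ligands, at 188 ± 75.3 (SD, n = 3) and 221 ± 15.6 (SD, n = 3). Both overlapped between the groups, with limma adjusted p of 0.490 and 0.501.

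Over all receptors and scavenging receptors of the ligands, 8 of 9 were found and 6 tested, of which 2 were called higher, Cxcr5 and Ackr3, and 2 lower, Cxcr4 and Cx3cr1. The median log2 fold change was -0.41, with Cx3cr1 included. Cx3cr1 is the sort gene, so that the gate set its call. Outside the gate, Cxcr4 was the receptor gene called lower. Cxcr5 and Ackr3 passed the filter only through CX3CR1- libraries, and with a mean of at least 50 the count called higher was 0. Without CX3CR1- replicate 3 or CX3CR1+ replicate 3, 1 was called higher. Ackr1, a decoy receptor of venular endothelium and red cells, was at 0, 0 and 19.4 in CX3CR1- libraries and at or under 3 reads in all CX3CR1+ libraries, and Cxcr1 was not analysed here. Xcl1, a lymphocyte ligand of the XC group, was at 0, 19.7 and 0.997 in CX3CR1- libraries and listed at 0 in all CX3CR1+ libraries.

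Further markers concerned cells of the cavity and of the muscle coat. Of 7 serosal cavity macrophage markers, 6 were tested and 4 called higher in CX3CR1- cells, Gata6, Icam2, Selp and F5, where the first 3, at 5.63, 2.43 and 4.32, are named after their values were seen, with a median of 3.37. All 4 passed the filter only through CX3CR1- libraries. The sum of the list was 406, 444 and 267 in CX3CR1- and 90.2, 72.4 and 72.0 in CX3CR1+ libraries, with Garnl3 most abundant at a log2 fold change of 0.48 and Gata6 at or under 3 reads in all CX3CR1+ libraries. F5, a coagulation factor made by these cells, had a log2 fold change of 5.83 (SE 0.78, limma adjusted p = 4.20e-04), and Prg4 one of 1.30, which was called at 2.24 without CX3CR1- replicate 1. Of 5 mesothelial markers, 3 were tested, with a median of 1.201, and Wt1 was called higher at 3.52 (limma adjusted p = 0.00469), or 2 genes without CX3CR1- replicate 2, where Upk3b was at 2.50. Wt1 passed the filter only through CX3CR1- libraries. Upk3b otherwise had a log2 fold change of 0.46, which was -0.98 without CX3CR1- replicate 1 and -0.14 without CX3CR1- replicate 3, and Lrrn4 one of 1.201. The mesothelial sum was 287, 37.1 and 74.4 in CX3CR1- and 41.2, 19.6 and 23.6 in CX3CR1+ libraries. Of 6 smooth muscle markers, 1 was called higher and 0 lower, with a median of -0.27. This was Smtn, named after its values were seen, at 1.11 (limma adjusted p = 0.0233), and the count was 0 without CX3CR1- replicate 1 or 3 or without any of the CX3CR1+ libraries. The muscle sum was 2224, 746 and 1992 in CX3CR1- and 1554, 2049 and 1737 in CX3CR1+ libraries, which overlapped, and Myh11, Actg2 and Des had log2 fold changes of -0.21, -0.31 and -0.22 that became 0.39, 0.23 and 0.32 without CX3CR1- replicate 2.

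Levels of the ligands were compared with each other per kilobase of the longest protein-coding transcript in GENCODE release M21. In CX3CR1+ cells the order was Cxcl2 at 13123 ± 3413 (SD, n = 3), Pf4 at 3634 ± 503 (SD, n = 3), Cxcl1 at 2928 ± 1629 (SD, n = 3), Cxcl16 at 1649 ± 291 (SD, n = 3) and Cxcl10 at 701 ± 132 (SD, n = 3). Cxcl9 at 45.5, Cxcl14 at 16.4, Cxcl12 at 14.7, Cxcl13 at 8.65 and Cx3cl1 at 3.33 followed far below. The ranges of mean ± SD of neighbours overlapped from Pf4 to Cxcl16 and from Cxcl14 to Cx3cl1. In CX3CR1- cells Cxcl2 led at 1575 ± 256 (SD, n = 3), before Pf4 at 637 ± 204 (SD, n = 3), Cxcl1 at 505 ± 182 (SD, n = 3), Cxcl10 at 369 ± 95.8 (SD, n = 3), Cxcl16 at 284 ± 85.2 (SD, n = 3) and Cxcl9 at 152 ± 60.4 (SD, n = 3). Cxcl12 at 64.4, Cxcl13 at 39.1, Cx3cl1 at 12.2 and Cxcl14 at 0.721 closed the order. From Pf4 to Cxcl9, the ranges of mean ± SD of neighbours overlapped, but the order of these 5 genes was the same in all 3 CX3CR1- libraries. Neighbours from Cxcl12 to Cxcl14 also had overlapping ranges. Transcripts of Cx3cl1 range from 377 to 3315 bases and those of Cxcl12 from 1878 to 5627, so that their levels per kilobase depend on the transcript present.

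The summed level per kilobase of the 10 ligands was 3639 ± 708 (SD, n = 3) in CX3CR1- against 22124 ± 5019 (SD, n = 3) in CX3CR1+ cells. Cxcl2 made up 49.5, 43.5 and 38.3% of this sum in CX3CR1- and 59.7, 61.3 and 56.2% in CX3CR1+ libraries. Its share was higher in every CX3CR1+ library, while the shares of Cxcl1, Pf4 and Cxcl16 overlapped between the groups. Pf4 made up 17.2 ± 2.34% (SD, n = 3) and 16.9 ± 4.12% (SD, n = 3), Cxcl1 13.6 ± 3.33% (SD, n = 3) and 12.7 ± 4.97% (SD, n = 3), and Cxcl16 7.99 ± 2.53% (SD, n = 3) and 7.62 ± 1.70% (SD, n = 3). Cxcl10 fell from 10.04 ± 0.971% (SD, n = 3) of the sum in CX3CR1- cells to 3.33 ± 1.13% (SD, n = 3) of it in CX3CR1+ cells, although its own value was higher in the latter. Cxcl9 made up 4.23 ± 1.51% (SD, n = 3) and 0.219 ± 0.104% (SD, n = 3), and Cxcl12 1.88 ± 0.885% (SD, n = 3) and 0.0685 ± 0.0209% (SD, n = 3). The shares were not tested.

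Of the 10 genes, 6 lie on chromosome 5, in a group that holds Pf4 (chr5:90772435-90773383), Cxcl1 and Cxcl2 and in a group 1415 kb further on that holds Cxcl9 and Cxcl10, with Cxcl13 (chr5:95956951-95961068) beyond both. In the first group, Pf4, Cxcl1 and Cxcl2 were called lower in CX3CR1- cells, and Cxcl3 was not called. Ppbp was called lower with all libraries, but not without CX3CR1- replicate 1 or any CX3CR1+ library, nor with adjacent library numbers as a block (limma adjusted p = 0.0570). Ppbp ends 2.37 kb before Pf4 begins, and Cxcl15 lies 88.2 kb before Cxcl1. The second group held Cxcl9, called higher, and Cxcl10, not called. The other members lie apart, Cxcl12 at chr6:117168535-117181367, Cx3cl1 at chr8:94772009-94782427, Cxcl16 at chr11:70453983-70459984 and Cxcl14 at chr13:56288643-56296551.

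**Figure D3:**
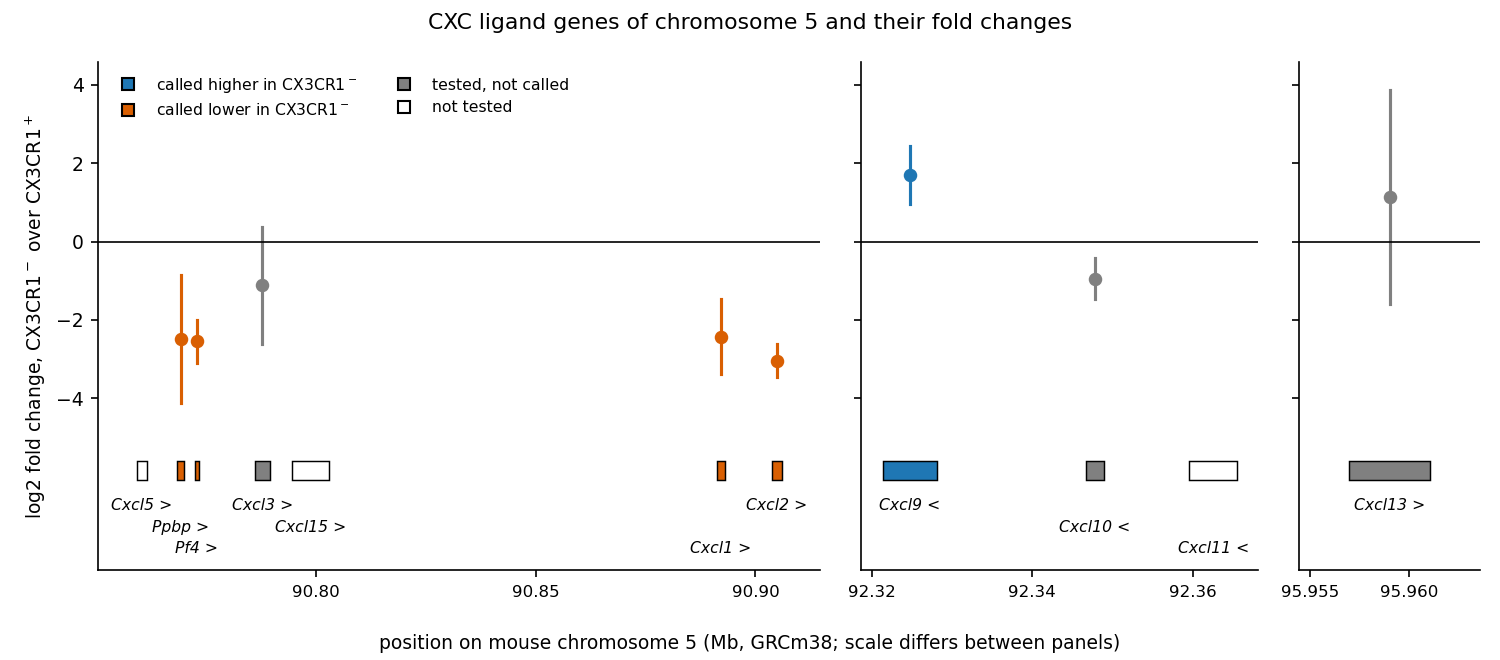
Positions of the CXC ligand genes on mouse chromosome 5 (Mb, GRCm38) in 3 stretches of different scale, with boxes for the genes, arrowheads for the strand, and above them the log2 fold change between CX3CR1- and CX3CR1+ libraries with its 95% interval. The intervals of Cxcl1, Cxcl2, Pf4, Ppbp and Cxcl10, which was not called, lie below 0 and that of Cxcl9 above it, and white boxes mark genes that were not tested.

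For each called ligand, the 2 tested genes with the most similar profile over the 6 libraries were found by the Euclidean distance of their mean-centred log2 values. The nearest to Cxcl2 were Tnf, the gene of tumor necrosis factor, at a distance of 0.447 and Adgre1, the gene of F4/80, at 0.570, which had log2 fold changes of -2.86 and -3.14. The nearest to Cxcl1 were Prdm1, a transcriptional repressor, at 0.569 and Gm16853 at 0.660, and those to Pf4 were Arhgap19, a GTPase regulator, at 0.273 and Flcn, the gene of folliculin, at 0.430. Cxcl16 lay closest to Pfkfb3, an activator of glycolysis, at 0.272 and to Snx18, a sorting nexin, at 0.335. Cxcl14 lay closest to Gm12166 at 0.421 and Gm26714 at 0.455. Among the genes called higher, the nearest to Cxcl9 were the chemokine gene Ccl9 at 0.224, with a log2 fold change of 1.67, and Gm37759 at 0.228, which itself was not called (limma adjusted p = 0.0906). Those nearest to Cxcl12 were Cry2, a repressor of the circadian clock, at 0.255 and Fam78b at 0.331, with log2 fold changes of 1.98 and 1.90.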

How the data were processed

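Bulk RNA-seq of 6 libraries, 3 CX3CR1- and 3 CX3CR1+ by title, was read as 75 bp single reads from unstranded TruSeq RNA v2 libraries. The authors quantified transcripts with Kallisto on GENCODE M16, summed them to genes with tximport and normalized with DESeq2, and deposited a table of normalized values, a signal per gene and library. These values are not whole reads: 41.2 to 43.5% of them are whole multiples of a library's smallest step (tolerance 0.001), so no count test was run. From the steps, a library holds about 5346381 to 17616761 reads, and 3 reads correspond to 1.39 to 5.36. Of the value columns, 0 were unmapped, and 23 gene symbols were repeated.

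Log2 of the value + 1 (pseudocount 1) was compared between the groups with limma 3.58.1 (trend on intensity, R 4.3.3) for the 17812 of 26110 genes with a mean of at least 10, two-sided, with Benjamini-Hochberg adjustment. Genes were called where the log2 fold change reached 1 in either direction and the adjusted p did not exceed 0.05. Exact permutation tests over the 3 against 3 libraries stand beside. The fit was tested on simulated data, where effects were met on average and few unchanged genes were called, but many changed genes were missed, so that a gene not called is not shown to be unchanged. Values per kilobase use the longest protein-coding transcript of GENCODE M21, found for 17079 of the 17812 tested genes (95.9%). Shared 31-mers were counted on both strands over all transcripts of GENCODE M21, not only the longest of each gene. Promoters are the 250 bases before RefSeq starts. Python 3.11.15, scipy 1.17.1 and matplotlib 3.10.9 were used.

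Members and lists were chosen with earlier results of these data known. Named genes are all members, all other ligands, receptors and proteases, the 3 most abundant genes of each other list, and the 2 nearest in pattern to each called member; genes named after their values were seen are marked, as are those at or under 3 reads as a class, and single values of some list genes are not reported here. Alternatives were pseudocounts of 0.5 and 10, no filter, a mean of at least 50, quantile and median-of-ratios scaling, equal totals without mitochondrial genes, no trend, library weights, adjusted p alone, each library left out, and a replicate block.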

Additional observations from a re-analysis of the deposited data

How the results depend on the processing

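Direction and call of Cxcl1, Cxcl2, Cxcl9, Cxcl12, Cxcl16 and Pf4 stayed the same in all 17 alternatives, and Cx3cl1 stayed uncalled in 16, since a mean of at least 50 gives no value for Cxcl13, Cxcl14 and Cx3cl1. Leaving out each library in turn gave log2 fold changes from -2.93 to -2.02 for Cxcl1, -3.17 to -2.84 for Cxcl2, 1.41 to 2.01 for Cxcl9, -1.09 to -0.71 for Cxcl10, 1.91 to 2.37 for Cxcl12, 0.026 to 2.79 for Cxcl13, -4.95 to -3.79 for Cxcl14, -2.79 to -2.42 for Cxcl16, -2.77 to -2.29 for Pf4 and 0.61 to 1.90 for Cx3cl1. Counts of members so ranged from 2 to 3 called higher and 4 to 6 called lower. With adjusted p alone, Cxcl10 passed at -0.95.

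Leaving out each library gave 0 to 1 other ligands called lower, 1 to 2 receptors higher, 3 to 5 NF-κB genes lower, 2 to 3 interferon genes lower, 0 to 1 lymphotoxin genes lower, 7 to 8 dendritic cell markers higher, 4 to 5 cavity markers higher, 0 to 1 platelet markers higher and 0 to 1 lower, 1 to 2 mesothelial, 0 to 1 muscle, 2 to 7 neural and 0 to 1 T cell markers higher, and 1 to 3 sort genes lower. With a mean of at least 50, which tests fewer genes, the counts were 0 other ligands lower, 0 receptors higher, 0 lymphotoxin genes lower, 1 cavity marker higher, 0 platelet markers lower, 2 endothelial markers higher and 0 lower, 0 mesothelial markers higher, 1 neural marker higher and 0 T cell markers higher. With adjusted p alone, 8 NF-κB genes, 5 interferon genes and 5 sort genes were lower. Quantile normalization gave 4 sort genes, 2 NF-κB and 2 interferon genes lower, 3 neural, 0 muscle and 0 T cell markers higher. Equal totals without mitochondrial genes gave 1 sort gene, 2 interferon genes, 0 platelet markers and 0 lymphotoxin genes lower. A pseudocount of 10 gave 0 muscle markers higher, and no filter 1 lymphotoxin gene higher.

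Leaving out libraries reversed Cxcr3 (from -1.19 to 0.15), Gp1ba (-1.25 to 1.06, with 0.37 without CX3CR1+ replicate 2), Upk3b (-0.98 to 2.50, with -0.14 without CX3CR1- replicate 3), Myh11 (-0.53 to 0.39), Actg2 (-0.62 to 0.23), Des (-0.57 to 0.32) and Cd3d (-0.19 to 0.40, with -0.17 without CX3CR1- replicate 3 and -0.0071 without CX3CR1+ replicate 2). A pseudocount of 10 reversed Gp1ba (0.0504) and quantile normalization Cd3d (-0.15). The causes were not tested.

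The median of all tested genes was -0.0035 in the main fit, -0.147 after quantile normalization and 0.164 with equal totals without mitochondrial genes, whose share was 51.7 ± 3.76% (SD, n = 3) in CX3CR1- against 19.6 ± 1.55% (SD, n = 3) in CX3CR1+ libraries. Calls over all genes were 2177 higher and 1451 lower, against 1759 and 1704 and against 2487 and 1116. Adjacent library numbers correlated at 0.104, 0.038 and 0.014, not all above 0.1, and a block on them gave 2165 and 1445 calls, with 0 other ligands and 0 platelet markers lower.

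Limits are the 3 libraries per group, for which separate pools of mice are not stated, the lack of whole counts, and values near 3 reads in some libraries for Cxcl13, Cxcl14 and Ppbp. Where a library was left out, the group of 2 shares its spread with the other group.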
